A study of Mus musculus with 6 samples.

Results

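Nell2 and the Slit and Robo guidance genes (Nell1, Nell2, Robo1, Robo2, Robo3, Slit1, Slit2 and Slit3) were followed in 6 mouse leg tumors, as 8 of the 17312 genes with a deposited FPKM value (fragments scaled to gene length and library size). The 8 genes were chosen by name. Nell2 was taken because its level differed between the genotypes of this same data set, and the others because they are its paralog, its receptor family and the ligands that share those receptors. Tumors came from mice with a Cre-lox inducible allele of SS18-SSX1 (3 tumors) or of SS18-SSX2 (3 tumors), the fusion oncogenes of synovial sarcoma. In both groups TATCre, a Cre protein that enters cells, was injected into pre-tibial soft tissue, and tumors were taken about 1 year later with no further treatment. Every tumor therefore carries an activated fusion, the recombined cell type is not set by a promoter, and no tissue without a fusion was analysed here. Age, strain and sex are not given in the labels, nor whether each tumor came from its own mouse, so p-values cover the spread between these 6 samples and may be technical in part.

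Slits are secreted repellents of growing axons, and Robos are the cell-surface receptors that read them. Robo1 and Robo2 bind Slits directly, while mammalian Robo3 has largely lost Slit binding and instead responds to Nell2, a secreted glycoprotein with EGF-like repeats that repels commissural axons. Outside the nervous system the same genes are known from vessel growth, muscle and bone, where Nell1 promotes bone formation.

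For 6 of the 8 genes an upstream sequence was matched in RefSeq (GRCm38.p6); the other two are Nell2 and Slit1. The stretches of Nell1, Robo3 and Slit3 held 250, 71 and 232 bases of annotated exon and are not shown, the limit being 30. Slit2 had the widest range of levels over the tumors. The neighbouring receptor genes Robo1 and Robo2 on chromosome 16 had their lowest level in the same tumor. Sequences are shown for Slit2, Robo1 and Robo2. Each is the 250 bases before the annotated start, 5′ to 3′ on the gene's strand, with every CG dinucleotide in capitals, from chr5:47982905-47983154 (plus strand), chr16:72662899-72663148 (plus strand) and chr16:74411826-74412075 (minus strand, 1 of several annotated Robo2 starts).
Slit2: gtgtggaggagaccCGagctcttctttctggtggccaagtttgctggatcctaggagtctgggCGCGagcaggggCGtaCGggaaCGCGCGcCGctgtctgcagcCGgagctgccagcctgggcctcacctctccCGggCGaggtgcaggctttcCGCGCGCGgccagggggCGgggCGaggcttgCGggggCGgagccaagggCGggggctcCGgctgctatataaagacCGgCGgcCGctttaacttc
Robo1: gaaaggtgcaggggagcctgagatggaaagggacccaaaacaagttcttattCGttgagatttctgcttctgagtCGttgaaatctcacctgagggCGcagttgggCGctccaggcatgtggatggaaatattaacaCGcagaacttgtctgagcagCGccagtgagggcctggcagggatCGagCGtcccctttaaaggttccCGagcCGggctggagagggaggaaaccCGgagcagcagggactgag
Robo2: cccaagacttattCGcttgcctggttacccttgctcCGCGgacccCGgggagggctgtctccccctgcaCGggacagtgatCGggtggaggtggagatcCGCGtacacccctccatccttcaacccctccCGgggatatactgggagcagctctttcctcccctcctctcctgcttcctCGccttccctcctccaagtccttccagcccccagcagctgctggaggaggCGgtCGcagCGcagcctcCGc
The Slit2 stretch held 25 CG dinucleotides, a number reached by 10.7% of 32851 RefSeq stretches of the same length, whose median was 6. Robo1 held 11 (reached by 35.6%) and the Robo2 stretch shown held 14 (reached by 29.4%), while the stretches before the other annotated Robo2 starts held 8 and 4. The Robo1 stretch lies inside the span of that gene given below (72308306 to 73046095), so it precedes an internal start. The letters TATAAA, searched on both strands, were in the Slit2 stretch and in 12.4% of all stretches, and not in the Robo1 and Robo2 stretches. Nothing was measured at these sites, and the counts describe the sequence only.

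The libraries held 7285853 to 17546227 reads by the steps between low FPKM values, with SS18-SSX2 tumor 2 the shallowest. At the shortest gene length that gave whole reads in all 6 tumors, the 8 genes had from 5 reads (Slit2 in SS18-SSX1 tumor 1) to 18775 reads (Slit3 in SS18-SSX2 tumor 3). Up to 40000 bases 2 to 11 lengths fitted a gene, each a multiple of the shortest, so these counts are the fewest that fit and are known only up to such a multiple. Tumor 2 of each genotype was rich in muscle RNA: 15 genes of skeletal muscle fibres averaged 8.46 and 7.15 there on the log2(FPKM + 1) scale, against 2.54 to 3.72 in the other 4 tumors. SS18-SSX2 tumor 2 also held the most B cell, plasma cell and macrophage RNA. Its 7 B and plasma cell genes summed to 745 FPKM, against 2.20 to 80.2 FPKM elsewhere. Most of that was the antibody light chain gene Igkc (671 FPKM). Its 10 macrophage genes summed to 622 FPKM, against 48.2 to 384 FPKM. SS18-SSX1 tumor 3 was rich in mast cell RNA (7.14 over 8 genes, against 1.27 to 3.21). Genes known from synovial sarcoma, Tle1, Bcl2, Sox2 and Pdgfra among a list of 10, averaged 4.13 to 4.69 in all 6 tumors. Of these 10, 2 were higher and 1 lower in all SS18-SSX2 tumors, where 8.72% of all tested genes did not overlap between genotypes. Sox2 was lower, at 31.1 to 40.7 FPKM with SS18-SSX1 and 9.55 to 21.3 FPKM with SS18-SSX2. Tle1 was higher, at 23.3 to 25.7 and 29.8 to 37.04 FPKM in the same order. In bulk tissue fewer cells of a type and less RNA per cell cannot be told apart.

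None of the 7 genes other than Nell2 passed the test between genotypes (limma on log2(FPKM + 1), Benjamini-Hochberg adjusted over 13873 tested genes, threshold 0.05). Nell2 was chosen for its difference, so no p-value is given for it. It was not among the genes called. All 8 passed the filter on low values. Of all tested genes 0.0649% were called (9 genes), 0.0432% with higher and 0.0216% with lower values in SS18-SSX2 tumors. Sex-linked genes were among them. Ddx3y, Uty and Kdm5d, all on the Y chromosome, were the 3 genes called lower, and Xist was among those called higher. Among these 7 genes, 1 had an unadjusted p under 0.05, Slit1, where 4.97% of all tested genes did. Of these 7, 5 had a higher and 2 a lower log2 mean in SS18-SSX2 tumors. The median log2 fold change of the 8 was 0.10 and that of all tested genes 0.01. The groups did not overlap for Nell2, which was chosen for it, and for Slit1, where 8.72% of tested genes did not overlap, 4.97% with higher and 3.76% with lower SS18-SSX2 values.

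**Figure D1:**
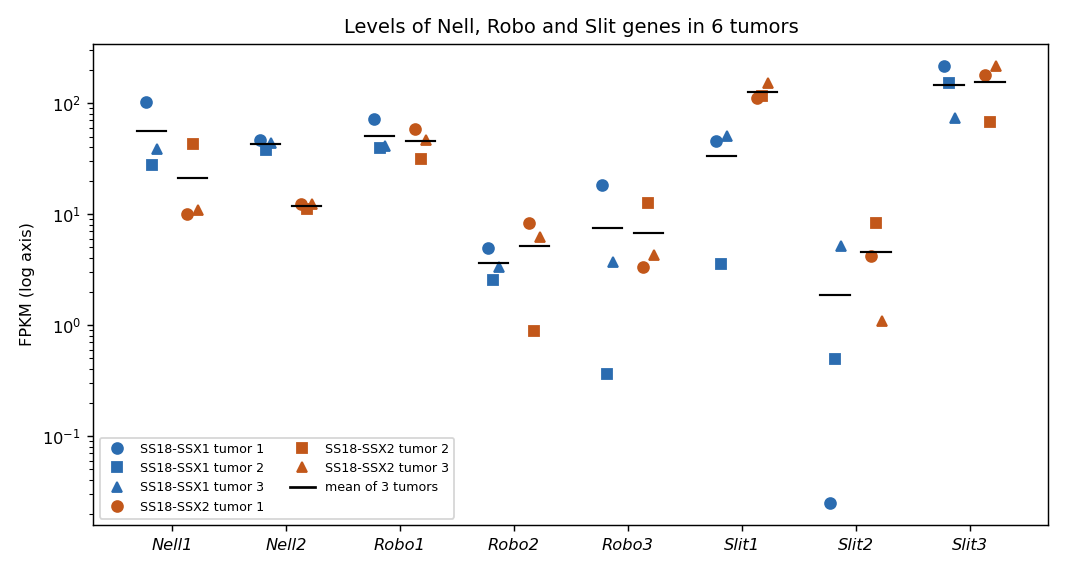
FPKM (log axis) of the 8 genes in each of the 6 tumors, with SS18-SSX1 in blue and SS18-SSX2 in orange, a symbol for each tumor number and a bar at the mean of 3 tumors. Nell2 is tight within each genotype and separated between them, at 37.9 to 46.7 against 11.1 to 12.4 FPKM, Slit1 is also separated, and Slit2 and Robo3 have the widest ranges.

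Nell2 (ENSMUSG00000022454, chromosome 15, 95075230 to 95528559 on GRCm38, minus strand) is the Robo3 ligand. The SS18-SSX1 tumors, here and below in the order 1, 2 and 3, had 46.7, 37.9 and 43.5 FPKM, while the SS18-SSX2 tumors had 12.3, 11.1 and 12.4 FPKM. All SS18-SSX1 tumors were thus above all SS18-SSX2 tumors, and the lowest of the first group was 3.06 times the highest of the second. The means were 42.7 ± 4.41 and 11.9 ± 0.696 FPKM (SD, n = 3), a ratio of 3.57 between SS18-SSX1 and SS18-SSX2. Because Nell2 was picked for this difference the values are a description, with no p-value. The log2 fold change was -1.75 (SE 0.22). It lay between -1.83 and -1.67 over 19 other settings, among them each tumor left out in turn and both muscle-rich tumors left out. With the groups apart, leaving out tumors could not turn its sign, so that range adds no support.

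Within a genotype Nell2 was the least variable of the 8 genes. Its coefficient of variation was 10.3% in SS18-SSX1 and 5.83% in SS18-SSX2 tumors, and its SD of log2(FPKM + 1) within genotypes, 0.12, was at the 1.69th percentile of tested genes. The small spread is part of what singled the gene out. Counting error alone gave exact Poisson intervals (95% confidence) of 11.3 to 13.3, 9.86 to 12.5 and 11.4 to 13.4 FPKM in the SS18-SSX2 tumors, the second from 275 reads. Recovered reads carry no molecular identifiers, so these intervals and those below cover counting error only. High Y-linked expression goes with SS18-SSX1 in these tumors (Ddx3y, an RNA helicase gene on the Y chromosome, had 28.2 to 35.2 FPKM there and 0 to 0.0148 FPKM in SS18-SSX2 tumors), so for Nell2 and every gene below the genotype and the sex of the mice cannot be told apart.

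Nell1 (ENSMUSG00000055409, chromosome 7, 49974864 to 50866608), the paralog that promotes bone formation, varied far more. SS18-SSX1 tumors had 102, 27.9 and 38.8 FPKM, and the SS18-SSX2 tumors 9.95, 42.5 and 10.9 FPKM. The groups overlapped, because SS18-SSX2 tumor 2 was above SS18-SSX1 tumors 2 and 3. Means were 56.3 ± 40.2 and 21.1 ± 18.5 FPKM (SD, n = 3), with a log2 fold change of -1.46 (SE 0.64, limma adjusted p = 0.997). The value was -0.93 without SS18-SSX1 tumor 1, -2.11 without SS18-SSX2 tumor 2 and -2.49 without the muscle-rich tumor 2 of both genotypes. SS18-SSX2 tumor 2, which stood apart from its group for Nell1 and, below, for Robo2 and Robo3, is the tumor with the most B cell, plasma cell and macrophage RNA, whose part in these levels was not tested.

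The balance of the paralogs also moved between tumors. Nell1 made up 42.4% to 79.2% of the summed FPKM of both Nell genes and was the larger part in SS18-SSX1 tumor 1 and SS18-SSX2 tumor 2. The Nell sum was 99.03 ± 44.1 and 33.1 ± 17.8 FPKM (SD, n = 3, SS18-SSX1 first here and in all pairs below), and its ranges of 65.8 to 149 and 22.2 to 53.6 FPKM did not overlap. The sum contains Nell2, so that separation is not independent of the choice of genes.

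Among the receptors Robo1 (ENSMUSG00000022883, chromosome 16, 72308306 to 73046095), the main Slit receptor of many tissues, was the most abundant in every tumor. Its levels were 71.9, 39.7 and 41.4 FPKM in the SS18-SSX1 group, against 58.9, 31.6 and 46.9 FPKM in the other. The groups overlapped, with tumor 1 highest and the muscle-rich tumor 2 lowest in each genotype. Means were 51.003 ± 18.1 and 45.8 ± 13.7 FPKM (SD, n = 3), with a log2 fold change of -0.14 (SE 0.35, limma adjusted p = 0.997).

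Robo2 (ENSMUSG00000052516, chromosome 16, 73891839 to 74411825, 846 kb from Robo1 and on the opposite strand), the second Slit receptor, stood far lower by FPKM in every tumor. Values of 4.96, 2.55 and 3.30 FPKM were found with SS18-SSX1, and of 8.35, 0.881 and 6.28 FPKM with SS18-SSX2. The SS18-SSX2 values lay on both sides of the SS18-SSX1 values, with SS18-SSX2 tumor 2 (106 reads) the lowest of all 6 and tumors 1 and 3 the highest. The log2 fold change was 0.16 (SE 0.59, limma adjusted p = 0.997).

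Endothelial genes had a like order of tumors. Over 10 markers, of which none was at 0 in all tumors, the mean log2(FPKM + 1) was 3.65, 1.80 and 2.94 with SS18-SSX1, against 3.60, 2.30 and 3.55 with SS18-SSX2, with summed levels of 30.2 to 137 and 50.4 to 133 FPKM. The endothelial receptor Robo4, a paralog outside the chosen genes, had 7.90, 1.54 and 2.30 FPKM and 6.77, 2.04 and 8.46 FPKM. The part of endothelial or muscle content in the Robo1 and Robo2 levels was not tested.

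Robo3 (ENSMUSG00000032128, chromosome 9, 37415669 to 37433246), the Nell2 receptor of commissural neurons, was expressed in these tumors but unevenly. The 3 SS18-SSX1 tumors had 18.4, 0.365 and 3.71 FPKM, the 3 SS18-SSX2 tumors 3.36, 12.6 and 4.29 FPKM. The highest and the lowest value of all 6 both came from SS18-SSX1 tumors, a range of 50.5-fold, and the low one rested on 34 reads (exact Poisson interval 0.253 to 0.510 FPKM). Means were 7.51 ± 9.62 and 6.75 ± 5.09 FPKM (SD, n = 3), with a log2 fold change of 0.44 (SE 0.91, limma adjusted p = 0.997). It was -0.49 without SS18-SSX1 tumor 2, -0.06 without SS18-SSX2 tumor 2 and 1.42 without SS18-SSX1 tumor 1. Leaving out either tumor 2 thus turned its sign, and the FPKM means already ran opposite to the log2 value. Levels of Robo3 and of its ligand did not rank the tumors alike: the tumor with the lowest Robo3 had 37.9 FPKM of Nell2, and SS18-SSX2 tumor 2, second highest for Robo3, had the lowest Nell2.

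Slit1 (ENSMUSG00000025020, chromosome 19, 41600257 to 41743665), the Slit best known from the nervous system, was higher in every SS18-SSX2 tumor. SS18-SSX1 tumors held 45.1, 3.53 and 50.7 FPKM, and the SS18-SSX2 tumors 111, 117 and 153 FPKM. The groups did not overlap, and the lowest SS18-SSX2 tumor was 2.19 times the highest SS18-SSX1 tumor. Means were 33.1 ± 25.8 and 127 ± 22.9 FPKM (SD, n = 3), a ratio of 3.84. The log2 fold change of 2.52 (SE 0.86) did not pass (limma adjusted p = 0.810). SS18-SSX1 tumor 2 sets much of its size, since without that tumor the value was 1.38, and 1.43 without tumor 2 of both genotypes. The direction was the same in all 19 other settings, and none of them called the gene. With the groups apart, leaving out tumors could not turn that direction. Of the pair of muscle-rich tumors 1 had the lowest Slit1 of its group, 3.53 FPKM, and the other had 117 FPKM.

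Among the cell type marker lists, only pericytes and smooth muscle and mast cells split by genotype, as Slit1 and Nell2 do. Each did so by the mean log2 value or by the sum, not by both. Over 10 genes of pericytes and smooth muscle, none at 0 in all tumors, the mean log2(FPKM + 1) was 2.82, 2.69 and 2.45 with SS18-SSX1, against 3.54, 3.07 and 3.32 with SS18-SSX2, without overlap. The sums, 72.1 to 118 and 102 to 182 FPKM, overlapped, and 2 of the 10 genes were apart between genotypes, both higher with SS18-SSX2. One of them, the smooth muscle actin gene Acta2, passed the test, at 4.09 ± 0.874 and 23.6 ± 4.37 FPKM (SD, n = 3, log2 fold change 2.27, SE 0.26, limma adjusted p = 0.0474). Mast cell genes ran the other way, with sums of 64.9 to 2519 and 13.8 to 63.8 FPKM, which only just did not overlap. Their mean log2 values did overlap, and 3 of 8 genes were lower in all SS18-SSX2 tumors. Of all tested genes 8.72% did not overlap, 4.97% with higher and 3.76% with lower SS18-SSX2 values. The part of these cell types in the Slit1 and Nell2 levels was not tested.

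**Figure D2:**
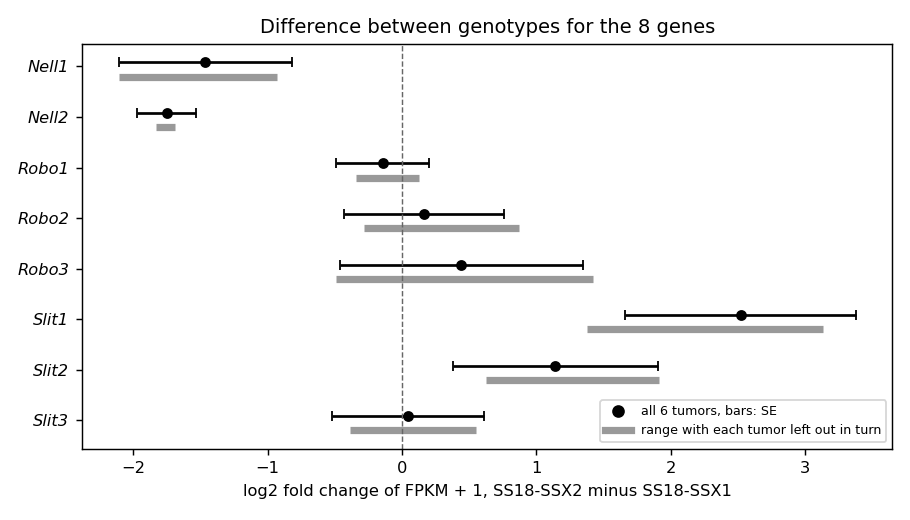
Log2 fold change of FPKM + 1 (SS18-SSX2 minus SS18-SSX1) of the 8 genes with its standard error (black) and the range of values when each tumor is left out in turn (grey). The grey range is -1.83 to -1.69 for Nell2 and 1.38 to 3.13 for Slit1, and those of Robo1, Robo2, Robo3 and Slit3 cross 0. The groups of Nell2 and Slit1 do not overlap, so their ranges could not cross 0.

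Slit2 (ENSMUSG00000031558, chromosome 5, 47983138 to 48307733), a ligand of Robo1 and Robo2, was the least abundant of the Slits and had the widest range of the 8 genes, 332-fold from the lowest to the highest tumor. Levels of 0.0249, 0.491 and 5.11 FPKM were found with SS18-SSX1, and of 4.18, 8.26 and 1.09 FPKM with SS18-SSX2. The groups overlapped only through SS18-SSX1 tumor 3, and the lowest value, 5 reads in SS18-SSX1 tumor 1, had an exact Poisson interval of 0.00809 to 0.0581 FPKM. Means were 1.88 ± 2.81 and 4.51 ± 3.60 FPKM (SD, n = 3), with a log2 fold change of 1.14 (SE 0.76, limma adjusted p = 0.997). The pseudocount of 1 compresses such low values, and with 0.1 in its place the log2 fold change was 2.26 and still did not pass.

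Slit3 (ENSMUSG00000056427, chromosome 11, 35121224 to 35708507), a Slit known for roles in the diaphragm and in bone, was the most abundant of the 8 in both genotypes by mean. SS18-SSX1 tumors reached 217, 150.4 and 73.7 FPKM, and the SS18-SSX2 tumors 179.7, 67.9 and 216 FPKM. The groups covered nearly the same range. Its low values were in the mast-cell-rich SS18-SSX1 tumor 3 and the muscle-rich SS18-SSX2 tumor 2, while the muscle-rich SS18-SSX1 tumor 2 kept 150.4 FPKM. The means were 147 ± 71.6 and 154 ± 76.999 FPKM (SD, n = 3), with a log2 fold change of 0.04 (SE 0.57, limma adjusted p = 0.997). Slit2 and Slit3 ran in opposite order in several tumors: the highest Slit2 was in the tumor with the lowest Slit3, and the lowest Slit2 in the tumor with the highest Slit3.

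Set side by side per length, Slit3 and Slit1 supplied nearly all Slit RNA. Slit3 was the larger part in 5 tumors and Slit1 in SS18-SSX2 tumor 2, where it reached 60.5%. The Slit1 share was 17.2%, 2.29% and 39.2% with SS18-SSX1, against 37.7%, 60.5% and 41.4% with SS18-SSX2, so SS18-SSX1 tumor 3 lay within the SS18-SSX2 range. Slit2 never exceeded 4.28%. The Slit sum was 182 ± 70.3 and 286 ± 88.9 FPKM (SD, n = 3), with overlapping ranges of 130 to 262 and 193 to 370 FPKM. Robo1 made up 70.1% to 93.2% of the sum of Robo1, Robo2 and Robo3, and Robo3 between 0.857% (SS18-SSX1 tumor 2) and 27.9% (SS18-SSX2 tumor 2). The Robo sum was 62.1 ± 28.9 and 57.7 ± 12.8 FPKM. All these shares depend on the length by which each gene was scaled. The shortest length that gave whole reads was 7563 bases for Robo1 (16511 annotated) and 16516 for Robo2 (16983 annotated). For Slit2 it was 15079 bases (25433 annotated). A shorter length raises FPKM for the same reads.

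**Figure D3:**
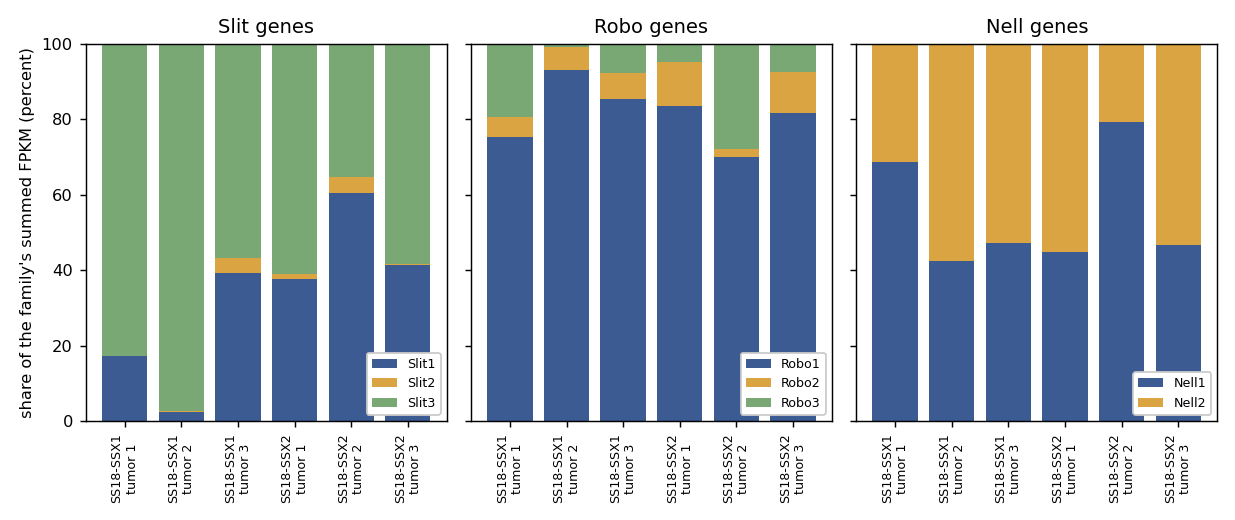
Share of each gene, in percent of its family's summed FPKM, in each of the 6 tumors for the Slit, Robo and Nell genes. Slit3 and Slit1 fill the Slit bars, Robo1 fills 70.1% to 93.2% of the Robo bars, and the Nell balance is tipped to Nell1 in SS18-SSX1 tumor 1 and SS18-SSX2 tumor 2.

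By mean FPKM the order in SS18-SSX1 tumors was Slit3, Nell1, Robo1, Nell2, Slit1, Robo3, Robo2 and Slit2, and every pair of neighbours in it had overlapping ranges. In SS18-SSX2 tumors it was Slit3, Slit1, Robo1, Nell1, Nell2, Robo3, Robo2 and Slit2. The sole neighbours there whose ranges were apart were Slit1 (111 to 153 FPKM) and Robo1 (31.6 to 58.9 FPKM). Over all 6 tumors Slit3 was at the 98.99th percentile of mean FPKM among the 17312 genes, Slit1 at the 97.5th, Robo1 at the 94.2nd and Nell2 at the 86.7th, with Robo3 near the middle at the 50.4th and Robo2 and Slit2 at the 39.4th and 33.5th.

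No gene of the wider guidance system passed either. Of 99 genes in 7 further lists 96 were tested, 0 were called (limma), and 12 (12.5%) had an unadjusted p under 0.05, beside 4.97% of all tested genes. The groups did not overlap for 10 genes with higher and 2 with lower values in SS18-SSX2 tumors, together 12.5%, beside 8.72% of all tested genes. These shares are descriptive.

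The other known partners of the Nell proteins did not stand out. Ros1 and Cntnap4 had no entry under those symbols among the 17312 genes. The 3 partners tested were the integrin subunits Itgb1 (171 ± 50.6 and 166 ± 54.7 FPKM, SD, n = 3) and Itga3 (3.32 ± 0.728 and 5.46 ± 1.19 FPKM), and Atraid (34.2 ± 7.31 and 25.4 ± 1.08 FPKM). None had an unadjusted p under 0.05, and the median log2 fold change was -0.05. The groups did not overlap for Itga3, which was higher in all SS18-SSX2 tumors.

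Among 18 tested cofactors and turnover genes of Slit and Robo, 12 had a higher and 6 a lower mean in SS18-SSX2 tumors, with a median log2 fold change of 0.07. Prrg4, proposed as a mammalian counterpart of the fly protein Commissureless that keeps Robo off the cell surface, had 0.380, 1.81 and 1.15 FPKM in the first group, against 6.002, 4.90 and 4.05 FPKM in the second. These groups did not overlap, with a log2 fold change of 1.55 (SE 0.35, limma adjusted p = 0.489). Plxna1, which binds a C-terminal Slit fragment, had 22.9 ± 3.42 and 60.6 ± 28.2 FPKM (SD, n = 3), also without overlap (log2 fold change 1.25, SE 0.40, limma adjusted p = 0.779). Nedd4, a ubiquitin ligase, and its adaptor Ndfip1 were abundant, at 359 ± 71.5 and 378 ± 72.6 FPKM and at 147 ± 23.3 and 143 ± 53.7 FPKM. The netrin receptor Dcc, which forms complexes with Robo proteins, was at 0 to 0.456 FPKM and below the filter.

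The 23 tested effectors inside the cell, which link Robo to the cytoskeleton, had a median log2 fold change of 0.18, 15 with a higher and 8 with a lower mean. None had an unadjusted p under 0.05. The kinase Abl2 had 8.11 ± 1.41 and 12.1 ± 4.28 FPKM and the adaptor Nck1 9.38 ± 2.56 and 6.58 ± 2.55 FPKM (SD, n = 3). Actin-binding Pfn1 (92.1 ± 14.7 and 109 ± 27.6 FPKM) and the GTPase Cdc42 (103 ± 14.1 and 85.9 ± 14.6 FPKM) had the highest levels of the list.

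**Figure D4:**
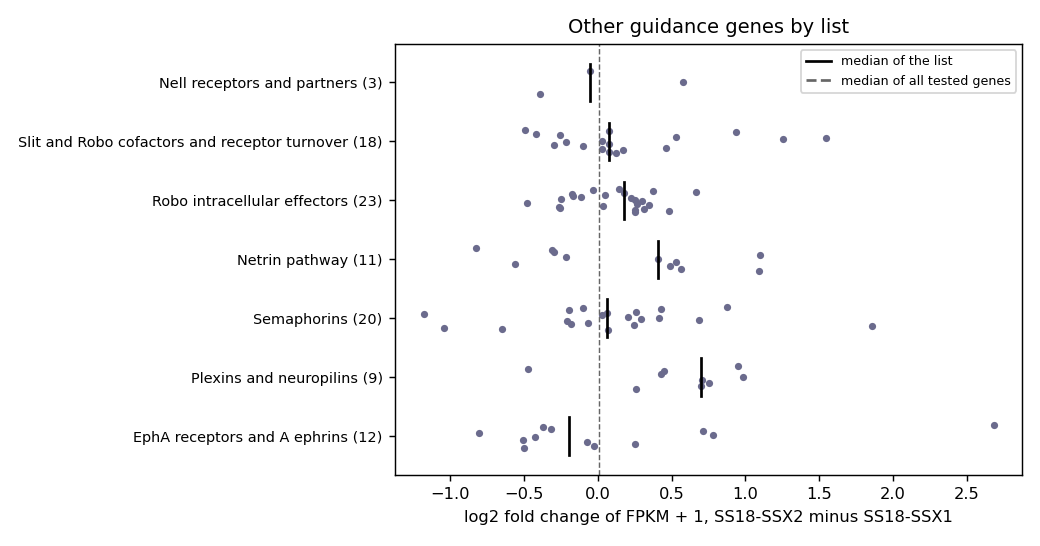
Log2 fold change of FPKM + 1 (SS18-SSX2 minus SS18-SSX1) for each tested gene of 7 guidance lists (number in parentheses), with the list median as a black bar and the median of all tested genes as a dashed line. Plexins and neuropilins have the highest median, 0.70, and Epha8 the highest single value, 2.68, and no gene shown passed the test.

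Other guidance families gave values of the same kind. In the netrin list (11 tested, median 0.41) the receptor Unc5a had 5.30 ± 2.25 and 12.1 ± 3.49 FPKM and Unc5d 2.01 ± 0.348 and 0.719 ± 0.372 FPKM (SD, n = 3), both without overlap, while the ligand Ntn1 had 89.2 ± 11.9 and 139 ± 51.6 FPKM and the receptor Unc5b 46.9 ± 22.6 and 37.95 ± 17.4 FPKM. Of 20 semaphorins (median 0.06) Sema3c had 11.2 ± 3.02 and 4.98 ± 1.79 FPKM, without overlap. Sema3d had 0.894 ± 1.16 and 6.06 ± 4.06 FPKM, Sema5a 45.4 ± 21.8 and 18.9 ± 8.21 FPKM and Sema3f 32.4 ± 23.8 and 24.3 ± 2.41 FPKM. Their receptors, 9 tested plexins and neuropilins, had a median of 0.70 with 8 means higher and 1 lower. Plxna2 had 3.41 ± 0.992 and 6.38 ± 1.26 FPKM and Plxna3 6.57 ± 2.299 and 11.02 ± 2.12 FPKM, both without overlap, and Plxnb2 had 74.2 ± 6.82 and 103 ± 25.3 FPKM and Nrp2 33.1 ± 7.62 and 59.5 ± 29.4 FPKM. In the EphA list (12 tested, median -0.20) the receptor Epha8 had 0.733, 3.65 and 5.37 FPKM in the first group, against 30.2, 8.30 and 46.1 FPKM in the second. Epha8 did not overlap between groups and did not pass (log2 fold change 2.68, SE 0.68, limma adjusted p = 0.593). Epha2 had 4.38 ± 1.71 and 7.94 ± 0.225 FPKM, Epha4 54.02 ± 18.4 and 94.3 ± 47.3 FPKM and the ligand Efna3 25.3 ± 9.26 and 29.3 ± 6.21 FPKM.

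The genes with patterns most like that of Nell2 were taken by Pearson correlation of log2(FPKM + 1) over the 6 tumors, across 13872 other tested genes, as a description. The highest values were those of the Y-linked genes Uty (r = 0.999), Kdm5d (0.999) and Ddx3y (0.997), which have the same split by genotype. Next were Mmp2 (0.985), a matrix metalloproteinase, with 319 ± 35.5 and 156 ± 19.5 FPKM (SD, n = 3), and Dusp10 (0.976), a phosphatase of stress-activated kinases, with 10.1 ± 3.27 and 2.56 ± 0.213 FPKM. The lowest were the pseudogenes Gm15772 (-0.997) and Rps3a3 (-0.995) and Klhdc8a (-0.992). In SS18-SSX1 tumors all were near 0. Gm15772 had 0.343 ± 0.350 and 34.1 ± 12.8 FPKM, Rps3a3 0.635 ± 0.182 and 98.7 ± 41.7 FPKM, and Klhdc8a 0.132 ± 0.118 and 2.09 ± 0.114 FPKM. In all, 70 genes (0.505%) exceeded 0.9, over 6 points that for Nell2 fall into 2 separate groups.

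The genes most like the other members differed from one to the next. Slit1 ran closest to Lmx1a (r = 0.999), a LIM-homeodomain factor of the dorsal neural tube, which had 9.01, 2.65 and 9.39 FPKM in the first group, against 12.7, 13.1 and 15.05 FPKM in the second, followed by Spag4 (0.999) and Fbxo21 (0.983). Slit2 was closest to Sema3e (0.984), the purinergic receptor gene P2ry13 (0.983) and the leptin receptor gene Lepr (0.983), the last from 1.48 FPKM (SS18-SSX1 tumor 1) up to 24.1 FPKM (SS18-SSX2 tumor 2). Slit3 was closest to the chemokine gene Ccl27a (0.995), Ccl25 (0.991) and 5830417I10Rik (0.990). Robo2 was closest to the planar polarity gene Vangl1 (0.994), Fam168b (0.985) and Rpl28 (0.981). For Robo3 these were the retinol dehydrogenase gene Dhrs3 (0.996), Rhpn2 (0.991) and Zfp566 (0.975), and for Nell1 they were Bckdhb (0.995), Aldoc (0.993) and the tight junction gene Tjp3 (0.992). They are the 3 highest of 13872 for each gene, over the same 6 libraries. Some lay near the filter of 1 FPKM: Ccl27a (0.520 to 1.47 FPKM), Ccl25 (0.412 to 1.66) and Spag4 (0.707 to 1.80). The same held for Rpl28 (0.603 to 1.90 FPKM), Sema3e (0.584 to 1.90) and P2ry13 (0.208 to 1.60).

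Markers of nerve were low apart from Stmn2, Map2 and Pmp22. Over 8 neuron genes the summed level was 8.67 to 25.3 FPKM with SS18-SSX1, against 15.7 to 29.2 FPKM with SS18-SSX2. By the mean over all 6 tumors the most abundant was Stmn2, a tubulin-binding protein gene, with 8.57 ± 11.1 and 10.01 ± 2.03 FPKM (SD, n = 3). Map2, a microtubule-associated protein gene, had 2.65 ± 0.4996 and 11.2 ± 7.22 FPKM, with a highest SS18-SSX1 value of 2.98 FPKM below the lowest SS18-SSX2 value of 3.94 FPKM (log2 fold change 1.54, SE 0.49, limma adjusted p = 0.786). The neuronal splicing factor gene Rbfox3 was also higher in all SS18-SSX2 tumors, at 0.0749 to 0.353 and 0.377 to 0.539 FPKM. Another 2 of the 8 neuron genes were lower in all of them. These were Snap25 (0.0856 to 0.885 and 0.0203 to 0.0808 FPKM) and Elavl4 (0.0135 to 0.127 and 0 to 0.0129 FPKM). Rbfox3, Snap25 and Elavl4 were below the filter and not tested. Of all tested genes 8.72% did not overlap between genotypes. Over 8 Schwann cell genes the sums were 30.4 to 72.3 and 42.1 to 50.3 FPKM, of which Pmp22, also expressed outside nerve, made up most. The part of nerve in the Slit1 and Nell2 levels was not tested.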

How the data were processed

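Total RNA (RNeasy) was depleted of ribosomal RNA with Ribo-Zero, per the labels' protocols. The submitters' processing notes name Novoalign 2.08.03 and mm10, with no role. The authors deposited FPKM per gene and tumor. For the counting tool, gene models and strand handling, nothing was given in the sources used here. Identifiers were matched to GENCODE M21 (GRCm38), with 17029 of 17312 given a symbol. The test took the 13873 genes that reached 1 FPKM in 3 or more tumors and used limma 3.58.1 (R 4.3.3, mean-variance trend) on log2(FPKM + 1), SS18-SSX2 minus SS18-SSX1, two-sided. Library totals came from the FPKM steps of single-exon genes: 77.6% to 79.8% of values below 20 reads were whole within 0.02. A member's reads used the shortest length at which all tumors came out whole, which was the annotated exon length for 2 of 8; for the other 6 the length used was not that of GENCODE. The code of the fit was run on simulated data, with a check only on the sign of large changes. No estimate of its power with 3 tumors per genotype is given.

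Members and lists were chosen with earlier results of these data known. Named from each list were the genes of smallest p and of highest mean (up to 4), from likeness the 3 highest r (for Nell2 the 5 highest and 3 lowest), and from marker lists up to 3 genes of highest mean. The likeness result for Robo1 is not reported here. Robo4, Dcc, Rbfox3, Snap25, Elavl4, Tle1, Bcl2 and Sox2 fall outside that rule and were chosen after their values were seen. The 19 alternatives changed the pseudocount, filter, scaling, variance model, weights, block, muscle covariate or tumors used. Python 3.11.15 was used with matplotlib 3.10.9, numpy 2.4.6 and pandas 2.3.3.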

Additional observations from a re-analysis of the deposited data

How the results depend on the processing

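In all 19 other settings 0 of the 7 genes other than Nell2 and 0 genes of the 7 guidance lists were called, and adjusted p for those 7 genes ranged from 0.198 to 1. Nell1, Nell2, Slit1 and Slit2 kept their direction in every setting that tested them (Robo2 and Slit2 were not tested with a minimum mean of 5 FPKM). For Nell2 and Slit1, whose groups do not overlap, leaving out tumors could not change the direction. Differences near 0 changed sign: Robo1 to 0.0031 with weights per tumor, Robo2 to -0.14 and Slit3 to -0.10 with the muscle level as a covariate, and Robo3 to -0.99 without tumor 2 of both genotypes. With each tumor left out in turn, log2 fold changes were -0.34 to 0.13 for Robo1 (above 0 when SS18-SSX1 tumor 1, 0.13, or SS18-SSX2 tumor 2, 0.10, was left out), -0.28 to 0.87 for Robo2 (below 0 without SS18-SSX1 tumor 2 or SS18-SSX2 tumor 1 or 3), -0.49 to 1.42 for Robo3 (below 0 without tumor 2 of either genotype) and -0.38 to 0.55 for Slit3 (below 0 without SS18-SSX1 tumor 3 or SS18-SSX2 tumor 1 or 3). The 9 genes called in all became 5 with a pseudocount of 0.1, 16 with weights per tumor, 20 without tumor 2 of both genotypes and 3 to 11 with each tumor left out (3 without SS18-SSX2 tumor 3). The cause was not tested. With the tumor number as a replicate block 4 genes were called. Tumors 2 share the letter A and tumors 3 the letter B in the deposited column names, and tumors 1 begin with N and differing numbers, with no stated meaning. Same-numbered tumors deviated together for numbers 1 (r = 0.38) and 2 (0.31) but not 3 (-0.28), so they were not treated as pairs. Counting error was widest for Slit2 in SS18-SSX1 tumors 1 and 2 (5 and 102 reads), Robo3 in SS18-SSX1 tumor 2 (34 reads) and Robo2 in the shallowest library (106 reads).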
